A study of Mus musculus with 33 samples.

Results

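The levels of 45 genes of mitosis and of the G2/M step of the cell cycle were followed in cultures of retinal progenitors of the mouse, which divide and then form the neurons and Muller glia of the eye's sensory layer. The genes were taken by name as known parts of the machinery of mitotic entry, chromosome segregation and cytokinesis, 45 of the 47729 genes counted, and all 45 were among the 18150 genes tested. All cells came from the retina of C57BL/6J mice at embryonic day 14, and the libraries were made from total RNA with a low-input kit. There were 11 groups of 3 libraries: untreated cells at day 0, cells primed towards cones with COCO protein at day 0, cells primed towards rods with taurine and retinoic acid at day 0, and cells induced towards cones with COCO or towards rods with taurine and retinoic acid at days 5, 12, 21 and 35. COCO is a secreted protein that blocks signalling by TGF-beta, BMP and Wnt ligands, and taurine and retinoic acid are factors used to favour rod photoreceptors. For brevity the COCO libraries are called cone libraries and the taurine and retinoic acid libraries rod libraries, which names the treatment and not the cells obtained. The labels do not describe how the cells were grown, how long each factor was present, or whether the 3 libraries of a group came from separate cultures or animals, so the p-values measure the spread between these libraries, which may be technical. The labels name no batch.

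A cell enters mitosis when the kinase CDK1, bound to a cyclin of the A or B type, is switched on by CDC25 phosphatases. The chromosomes are then compacted by condensin, held by kinetochores to a spindle built by motor proteins, and watched by the spindle checkpoint until CDC20 and the anaphase-promoting complex start the destruction of securin and cyclin B. Most of these genes are transcribed only late in the cycle: in quiescent cells the DREAM complex holds them down through a promoter element called CHR, and in G2 the factors B-MYB, FOXM1 and NF-Y turn them on. In the retina, progenitors divide while they give off neurons, Muller glia re-enter the cycle only after injury in some species, and transcripts of mitosis therefore mark the dividing cells of the tissue. In RNA from whole cultures, fewer dividing cells and less of each transcript per dividing cell cannot be told apart.

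Each library had between 7511837 and 19166442 counts in genes (median 12985662), and mitochondrial genes took 7.42% to 21.0% of them. Counts in genes were 26.9% to 34.9% of the reads tallied per library, and the rest were assigned to no gene. The lowest count of any of the 45 genes in any library was 15. Levels are given as CPM, a gene's counts scaled to a common library size with TMM factors. The 12 markers of retinal progenitors that were listed had counts in each group and summed to 1475 to 1675 CPM in untreated cells, where 7 photoreceptor markers summed to 1146 to 1532 CPM and 6 ganglion cell markers to 173 to 293 CPM. By day 35 the photoreceptor markers were at 12.3 to 39.9 CPM in cone and 9.14 to 17.8 CPM in rod libraries, while the 10 Muller glia markers had gone from 788 to 952 CPM in untreated cells to 6577 to 7041 and 6183 to 8627 CPM. Most of that sum at day 35 was Dkk3, Vim and Apoe. Their means were 2266, 2160 and 1260 CPM in cone and 3675, 1209 and 1102 CPM in rod libraries. Glul was at means of 139 CPM in untreated cells and 165 and 154 CPM in cone and rod libraries at day 35. Differences were tested with edgeR's quasi-likelihood test on the 33 libraries together, and a gene counts as called where its p, adjusted by Benjamini-Hochberg over all 18150 genes, was under 0.05. Fold changes are on the log2 scale with their standard error (SE).

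The 45 genes differed widely in level. Per kilobase of exon, Mki67, which encodes the chromosome surface protein Ki-67, stood highest in untreated cells at 53.7 ± 13.8 CPM per kilobase (SD, n = 3), followed by Top2a, the topoisomerase that untangles sister chromatids, at 32.6 ± 5.80. Spc25, a subunit of the NDC80 kinetochore complex, followed at 30.6 ± 3.45 and Smc4, a condensin ATPase, at 26.0 ± 3.72 CPM per kilobase. Pttg1, which encodes securin, the inhibitor of the protease that cuts cohesin, was lowest at 1.08 ± 0.279, next to Cdc25c, a phosphatase that activates CDK1, at 1.39 ± 0.266 CPM per kilobase. Of the 45 genes, 15 share exonic bases with another counted gene in GENCODE M21 on GRCm38, and 7 share over 10% of them: Ccna2, Cdc25c, Kif20a, Kif4, Ncapg, Prc1 and Ube2c. Their values are less certain, since reads in shared bases could have been lost or assigned to the neighbour.

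The promoters of these genes are shown because the members moved together in the comparisons that follow and because their shared promoter elements are known. Windows from 250 bases before to 50 bases after the start site were taken from RefSeq on GRCm38.p6, where 37 of the 45 genes had a window and 2 of these had a pair of them. Aurkb, Ccna2, Cdc25c, Foxm1, Incenp, Kif20a, Smc4 and Tpx2 had none in the table. The windows of Cdca8, Kif2c, Kif4 and Pttg1 lie wholly inside the gene as placed by GENCODE M21. For these genes the bases before the GENCODE start were not searched. The CHR element was searched as TTTGAA and the CCAAT box, the site bound by NF-Y, as CCAAT, each on both strands, so that TTCAAA and ATTGG also count. The end of a CCAAT match can be the start of a CHR match, which happened in 1 of the members' windows. A CHR match was present in 29 of 39 windows (74.4%), against 17.9% of the 32851 windows of that length in the table. A CCAAT match was present in 74.4% of the members' windows against 37.4% of all windows, and both motifs in 64.1% against 6.95%. Of the 38 CHR matches, 28 began within 50 bases of the start site. The paired windows of Ect2 and Prc1 overlap, so the matches they share are counted in each window. The share near the start was not computed for all windows. For comparison, 45.7% of 46 windows of the further mitotic genes listed, and 10.0% of 40 windows of DNA replication genes held a CHR match, with CCAAT matches in 69.6% and 57.5%. A match is a description of the letters in the window and neither a binding site nor a cause. In the windows printed here, 5′ to 3′ on the strand of the gene, capitals mark the matches. Cdk1 (chr10:69352863-69353162, minus strand), the kinase of mitotic entry, Top2a (chr11:99024140-99024439, minus strand), Cdc20 (chr4:118437294-118437593, minus strand), the activator of the anaphase-promoting complex, Plk1 (chr7:122159185-122159484, plus strand), a kinase of spindle assembly and mitotic exit, and Kif23 (chr9:61946750-61947049, minus strand), a motor of the central spindle, hold both motifs. Anln (chr9:22389157-22389456, minus strand), the scaffold of the contractile ring, holds 2 CHR matches and no CCAAT. Mybl2 (chr2:163054385-163054684, plus strand), which encodes B-MYB, and Pttg1 (chr11:43425932-43426231, minus strand) hold neither, and Pttg1 was chosen for display after its values were seen.
Cdk1: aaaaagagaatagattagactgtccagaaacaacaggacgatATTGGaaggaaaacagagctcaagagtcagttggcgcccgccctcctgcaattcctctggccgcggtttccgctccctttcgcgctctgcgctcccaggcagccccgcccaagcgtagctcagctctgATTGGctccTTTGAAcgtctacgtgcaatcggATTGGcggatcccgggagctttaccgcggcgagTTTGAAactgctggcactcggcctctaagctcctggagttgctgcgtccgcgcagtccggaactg
Top2a: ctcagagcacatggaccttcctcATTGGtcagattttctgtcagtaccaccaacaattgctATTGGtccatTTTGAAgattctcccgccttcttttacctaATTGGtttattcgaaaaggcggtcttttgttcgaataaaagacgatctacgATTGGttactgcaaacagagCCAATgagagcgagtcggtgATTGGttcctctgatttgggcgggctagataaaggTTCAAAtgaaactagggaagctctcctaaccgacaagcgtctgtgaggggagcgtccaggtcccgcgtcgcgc
Cdc20: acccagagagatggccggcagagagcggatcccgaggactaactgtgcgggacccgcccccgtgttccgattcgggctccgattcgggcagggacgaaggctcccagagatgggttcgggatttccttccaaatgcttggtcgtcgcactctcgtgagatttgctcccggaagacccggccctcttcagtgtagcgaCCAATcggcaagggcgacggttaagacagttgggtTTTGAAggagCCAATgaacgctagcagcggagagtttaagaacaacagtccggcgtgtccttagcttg
Plk1: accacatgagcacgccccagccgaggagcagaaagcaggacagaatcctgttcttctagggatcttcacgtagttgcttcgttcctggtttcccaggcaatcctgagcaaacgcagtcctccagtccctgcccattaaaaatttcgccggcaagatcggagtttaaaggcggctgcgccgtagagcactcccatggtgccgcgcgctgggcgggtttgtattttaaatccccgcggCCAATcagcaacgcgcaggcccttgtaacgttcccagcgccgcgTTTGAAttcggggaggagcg
Kif23: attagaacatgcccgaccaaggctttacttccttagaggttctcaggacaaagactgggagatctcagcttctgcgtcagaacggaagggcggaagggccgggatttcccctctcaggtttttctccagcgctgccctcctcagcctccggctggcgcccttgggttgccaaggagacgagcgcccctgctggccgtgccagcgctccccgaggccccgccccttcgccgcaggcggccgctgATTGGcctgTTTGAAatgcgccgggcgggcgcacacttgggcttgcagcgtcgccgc
Anln: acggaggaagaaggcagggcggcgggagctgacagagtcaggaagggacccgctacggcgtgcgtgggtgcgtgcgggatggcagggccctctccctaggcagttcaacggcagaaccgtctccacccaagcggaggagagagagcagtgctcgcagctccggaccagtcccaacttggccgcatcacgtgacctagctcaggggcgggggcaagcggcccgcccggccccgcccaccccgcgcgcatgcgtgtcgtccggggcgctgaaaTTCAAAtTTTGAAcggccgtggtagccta
Mybl2: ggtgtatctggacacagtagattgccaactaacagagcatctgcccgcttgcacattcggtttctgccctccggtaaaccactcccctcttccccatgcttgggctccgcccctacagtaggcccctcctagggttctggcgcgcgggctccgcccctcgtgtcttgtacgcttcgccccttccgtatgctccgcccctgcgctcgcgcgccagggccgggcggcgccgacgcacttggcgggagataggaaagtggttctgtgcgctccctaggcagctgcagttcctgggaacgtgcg
Pttg1: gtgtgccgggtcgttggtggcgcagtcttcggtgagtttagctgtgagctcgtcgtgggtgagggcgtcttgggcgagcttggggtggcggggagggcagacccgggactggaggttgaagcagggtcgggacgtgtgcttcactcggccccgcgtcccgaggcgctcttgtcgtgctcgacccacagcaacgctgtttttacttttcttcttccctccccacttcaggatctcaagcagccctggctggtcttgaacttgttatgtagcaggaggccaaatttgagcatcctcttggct

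**Figure D1:**
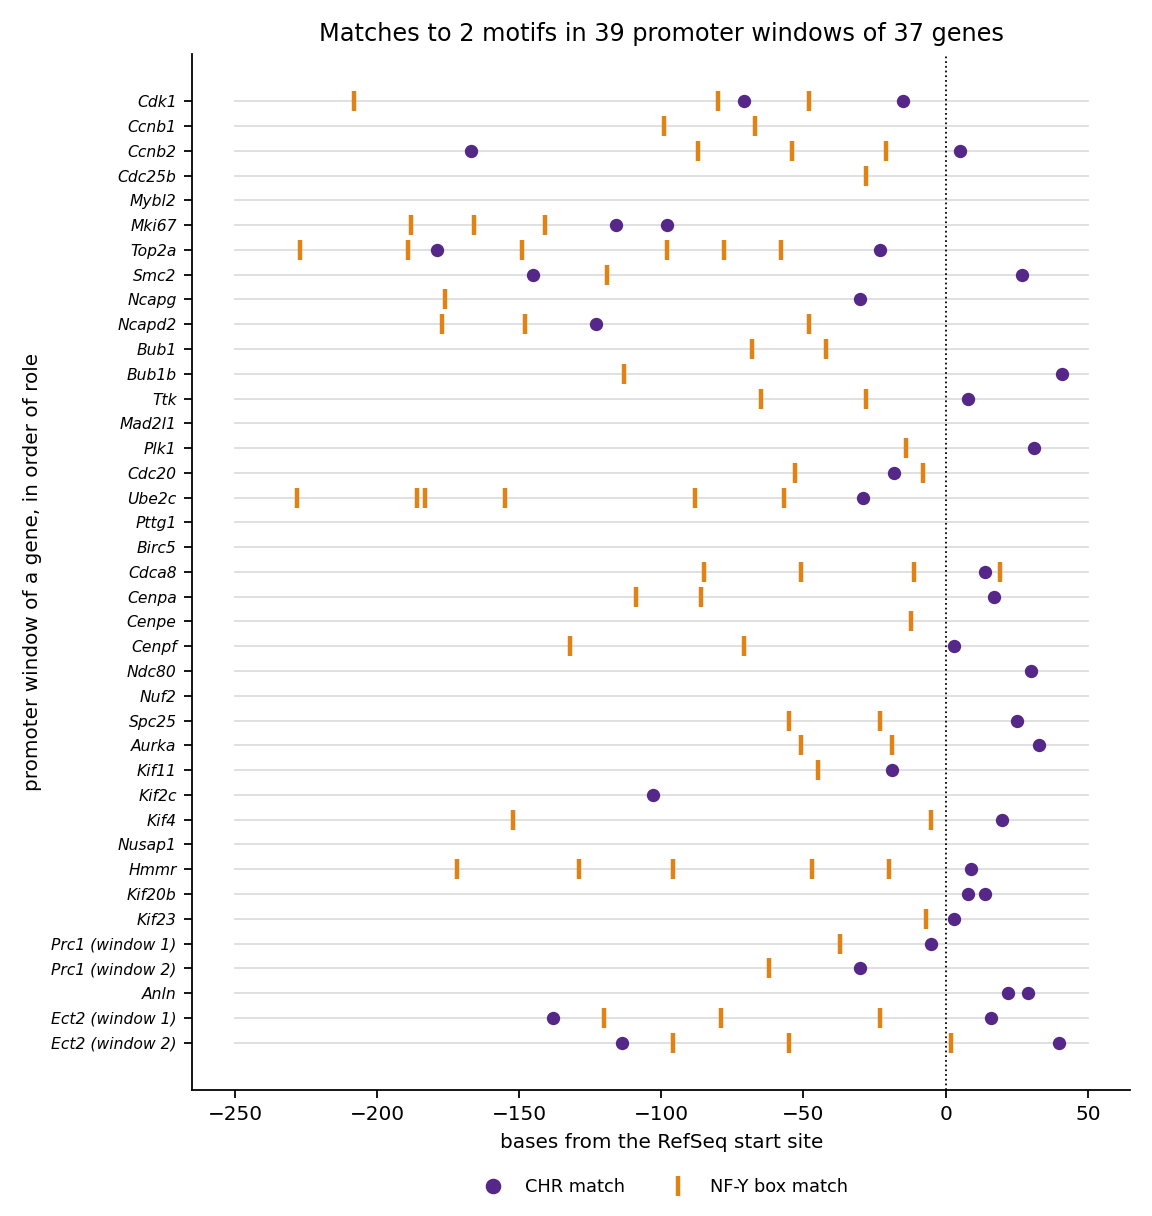
Positions of matches to the CHR element (circles) and to the CCAAT box bound by NF-Y (bars) in the 39 promoter windows of 37 genes, in bases from the RefSeq start site (dotted line), with genes in order of role. Of 38 CHR matches, 28 began within 50 bases of the start, with matches in the overlapping windows of Ect2 and Prc1 counted in each window. Mybl2, Mad2l1, Pttg1, Birc5, Nuf2 and Nusap1 had no match to either motif.

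Summed over the 45 genes, the transcripts of mitosis are described here library by library, and the sum itself was not tested. Untreated cells held 2689, 2046 and 3004 CPM in the 3 libraries and cone primed cells 2437, 3571 and 2238 CPM, so these groups overlapped. Rod primed cells held 4459, 4354 and 5394 CPM, above every untreated and cone primed library. At day 5 the cone libraries were down to 1512, 1825 and 1952 CPM while the rod libraries stood at 3887, 3499 and 3427 CPM. At day 12 the cone libraries were back at 3002, 3082 and 4176 CPM, inside the range of the rod libraries at 4182, 1813 and 2976 CPM, of which replicate 2 was the low one. The cone libraries were at 2037, 1709.5 and 1836 CPM at day 21, with the rod libraries at 3485, 2662 and 2603 CPM. At day 35 cone libraries held 1649, 884 and 1304 CPM and rod libraries 1161, 1866 and 1511 CPM, the lowest means of either treatment. The treatments overlapped.

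**Figure D2:**
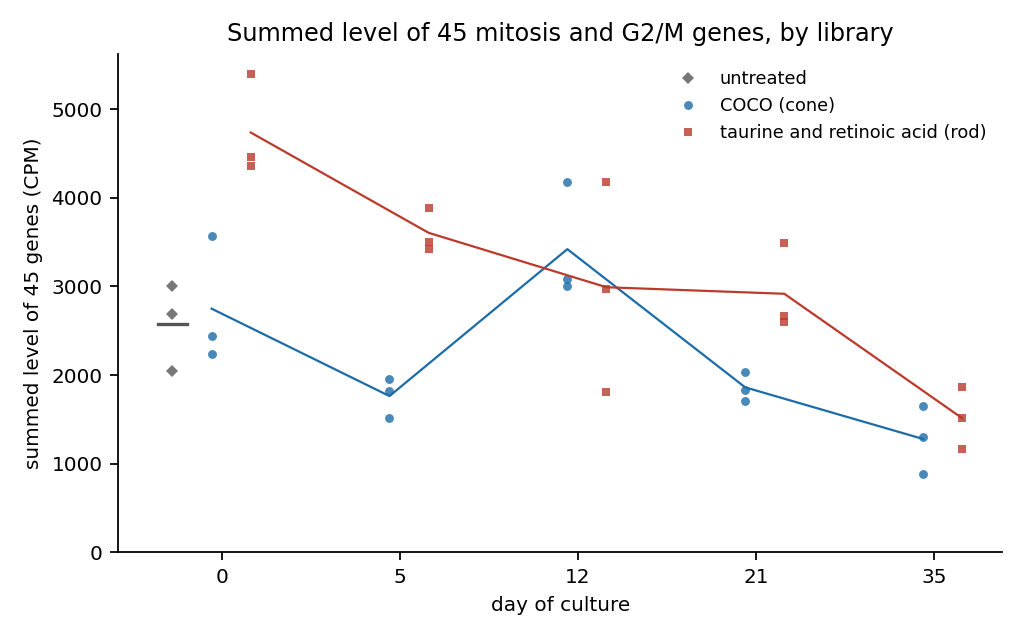
Summed level in CPM of the 45 genes in each of the 33 libraries (points), by day of culture (days are evenly spaced on the axis and not to scale), with lines through the means of 3 libraries. The 3 rod primed libraries lie between 4354 and 5394 CPM, and the cone libraries dip at day 5 and return at day 12.

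Mitotic genes were higher after priming with taurine and retinoic acid than in untreated cells, and were not shown to differ after priming with COCO. In rod primed against untreated cells all 45 log2 fold changes were positive, with a median of 0.87 (median of all tested genes 0.00), and 30 of the 45 genes were called higher, against 6.71% of all tested genes called higher. Nusap1 (ENSMUSG00000027306, chr2:119618298-119651244, plus strand on GRCm38), a microtubule-binding protein of the spindle, was at 43.1, 32.5 and 45.6 CPM in untreated and 89.8, 84.5 and 104 CPM in rod primed cells. Cdk1 was at 21.7, 15.5 and 26.1 CPM in untreated and 38.0, 51.8 and 53.8 CPM in rod primed cells. Every rod primed library lay above every untreated one for both genes, and these were the largest rises: 2.30-fold for Nusap1 (log2 fold change 1.20 ± 0.27 SE, adjusted p = 0.00418) and 2.27-fold for Cdk1 (log2 fold change 1.18 ± 0.31 SE, adjusted p = 0.0152). Every rod primed library lay above every untreated one for 43 of the 45 genes, against 17.6% of all tested genes.

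By role, all 4 checkpoint genes (Bub1, Bub1b, Ttk and Mad2l1), both transcription factors and 5 of 6 genes of chromosome structure were called higher in rod primed cells. Foxm1, a transcription factor of G2 genes, was at 37.5, 32.4 and 41.1 CPM untreated and 65.8, 62.3 and 76.0 CPM rod primed (log2 fold change 0.88 ± 0.26 SE, adjusted p = 0.03). Mybl2 went from 11.6, 8.94 and 11.5 to 14.5, 19.1 and 21.9 CPM (log2 fold change 0.80 ± 0.24 SE, adjusted p = 0.0328). Bub1b, the checkpoint kinase-like protein BUBR1, went from 44.1, 35.2 and 45.5 to 67.0, 64.8 and 80.1 CPM (log2 fold change 0.77 ± 0.23 SE, adjusted p = 0.0321). None of these groups overlapped. Plk1 (log2 fold change 0.99 ± 0.29 SE, adjusted p = 0.0278), Aurkb, the kinase of the chromosomal passenger complex (log2 fold change 1.03 ± 0.32 SE, adjusted p = 0.0403), and Ndc80, the microtubule-binding subunit of the kinetochore (log2 fold change 1.17 ± 0.31 SE, adjusted p = 0.0161), were also called. The genes that missed the threshold included Mki67, at 559, 393 and 669 CPM untreated and 939.9, 896 and 1131 CPM rod primed, with no overlap (log2 fold change 0.87 ± 0.29 SE, adjusted p = 0.0561). Ccnb1, the cyclin B1 gene, missed it too (log2 fold change 0.81 ± 0.34 SE, adjusted p = 0.137), as did Cdc20, Birc5 and Cenpf, with adjusted p of 0.0547, 0.0873 and 0.0719 by edgeR.

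The count of 30 was 3 when untreated replicate 2 was left out and 4 when rod primed replicate 3 was. Of the 17 genes described throughout and Nusap1, Nusap1 alone was called without each of the 6 libraries in turn. The rod primed cells also differed in other markers: 7 of 10 Muller glia markers were called higher, summing to 1994 to 2446 against 788 to 952 CPM, with none at 0. Of 12 progenitor markers 5 were called higher and 2 lower, summing to 1952 to 2266 against 1475 to 1675 CPM, and of 6 ganglion cell markers 1 was called lower, summing to 54.9 to 148 against 173 to 293 CPM. Their part in the result was not tested. In cone primed against untreated cells 0 of 45 genes were called by edgeR, 0 at an unadjusted p under 0.05 and 0 by DESeq2, against 0.0% of all tested genes, and the median log2 fold change was 0.09 (range -0.27 to 0.27).

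The primed groups were also compared with each other, a comparison that shares the rod primed libraries with the one above. All 45 genes had a negative cone minus rod difference at day 0, with a median of -0.80, and 15 were called lower, against 4.77% of all tested genes. Ttk, the MPS1 kinase that starts the checkpoint, was at 7.80, 11.9 and 7.65 CPM in cone primed and 20.5, 16.4 and 22.3 CPM in rod primed libraries (log2 fold change -1.10 ± 0.27 SE, adjusted p = 0.0119). Ndc80 was at 17.7, 28.5 and 17.2 and 43.1, 39.3 and 53.8 CPM (log2 fold change -1.10 ± 0.31 SE, adjusted p = 0.031). The cone primed libraries lay below the rod primed ones for both genes, and for 42 of the 45, against 15.5% of all tested genes, with cone primed replicate 2 the highest of its group. The count of 15 was 0 when replicate 1 or 3 of the cone primed or replicate 3 of the rod primed group was left out, 9 without replicate 2 of the rod primed and 25 without replicate 2 of the cone primed group. Ttk was not called without 3 of 6 libraries (adjusted p up to 0.0812) and Ndc80 without 4 of 6 (up to 0.156). Of 10 Muller glia markers 6 were called lower in cone primed than in rod primed libraries, summing to 864 to 1139 against 1994 to 2446 CPM with 1 at 0 in cone primed libraries. Of 12 progenitor markers 4 were called lower and 2 higher, summing to 1543 to 1655 against 1952 to 2266 CPM with none at 0. Their part in the result was not tested.

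**Figure D3:**
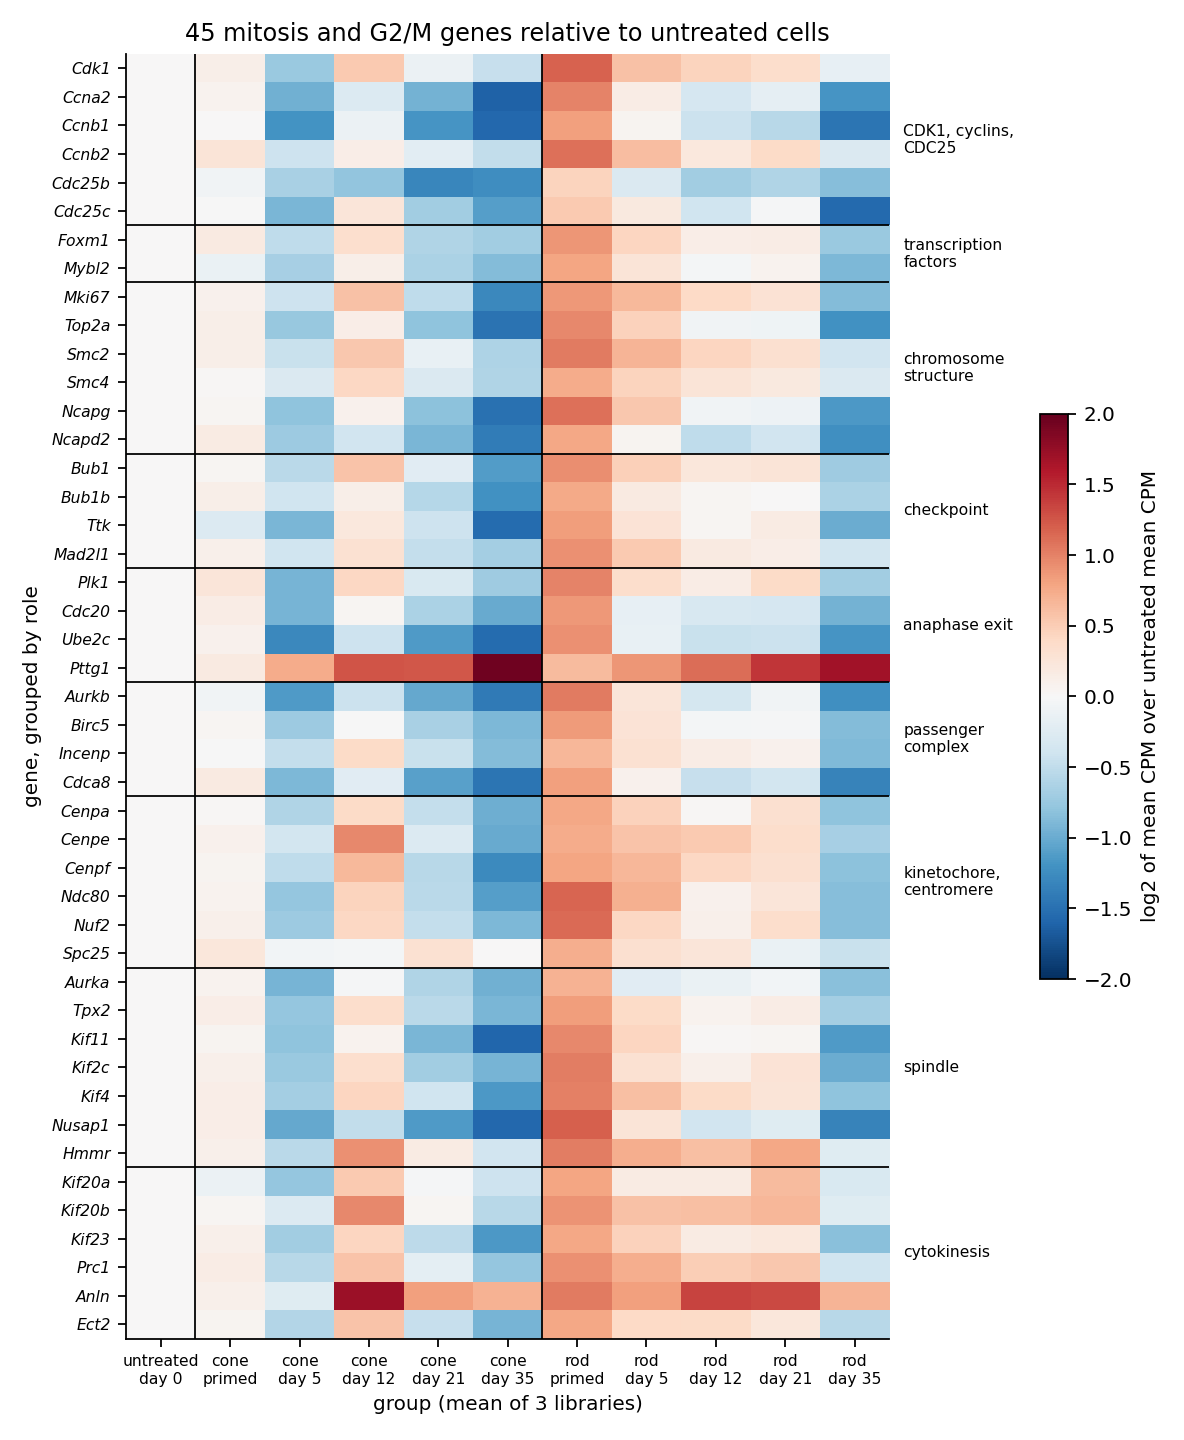
Log2 ratio of each gene's mean CPM (3 libraries) to its mean in untreated cells, for the 45 genes in order of role (rows) and the 11 groups (columns), from blue (lower) to red (higher). Most rows are blue at cone day 5, paler or red at cone day 12 and red in rod primed cells. Pttg1 and Anln stand apart with red at day 35.

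At day 5 the mitotic genes were lower in cone than in rod libraries. All 45 differences were negative with a median of -1.06 (median of all tested genes 0.01), and 37 genes were called lower, against 5.8% of all tested genes. The kinetochore gene Ndc80 (ENSMUSG00000024056, chr17:71496100-71526857, minus strand on GRCm38) was at 10.3, 10.3 and 14.7 CPM in cone and 38.0, 33.2 and 28.5 CPM in rod libraries, 2.81-fold lower (log2 fold change -1.49 ± 0.32 SE, adjusted p = 0.00267). Aurkb was at 5.21, 6.08 and 7.26 CPM in cone and 18.0, 14.7 and 15.8 CPM in rod libraries, 2.60-fold lower (log2 fold change -1.38 ± 0.33 SE, adjusted p = 0.00775). These were the 2 largest differences. The libraries of the treatments did not overlap for either gene, and every cone library lay below every rod library for 43 of the 45, against 16.1% of all tested genes.

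Among the genes of mitotic entry, 5 of 6 were called lower at day 5. Cdk1 was at 11.1, 13.1 and 13.6 CPM in cone and 39.4, 27.1 and 28.8 CPM in rod libraries (log2 fold change -1.33 ± 0.32 SE, adjusted p = 0.0069). Ccnb1 was at 9.42, 13.0 and 14.2 and 29.8, 27.5 and 29.4 CPM (log2 fold change -1.24 ± 0.35 SE, adjusted p = 0.0235). The exception was Cdc25b, a phosphatase that activates CDK1 at the centrosome, at 10.2, 10.0 and 14.4 and 16.3, 13.7 and 14.7 CPM, where the highest cone library lay inside the rod range (log2 fold change -0.37 ± 0.30 SE, adjusted p = 0.506). Both transcription factors were called: Foxm1 was at 22.8, 25.2 and 29.8 against 57.1, 38.3 and 54.5 CPM (log2 fold change -0.94 ± 0.26 SE, adjusted p = 0.0205) and Mybl2 at 6.21, 5.90 and 8.14 against 13.6, 11.9 and 13.0 CPM (log2 fold change -0.92 ± 0.24 SE, adjusted p = 0.0149).

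All 6 genes of chromosome structure were called lower. Mki67 was at 331, 423 and 462 CPM in cone and 889, 843 and 814 CPM in rod libraries (log2 fold change -1.07 ± 0.29 SE, adjusted p = 0.0199), and Top2a at 147, 181 and 193 and 446, 379 and 381 CPM (log2 fold change -1.21 ± 0.28 SE, adjusted p = 0.00617). The highest cone library lay below the lowest rod library for each. Of the 4 checkpoint genes Bub1, Ttk and Mad2l1 were called, and Bub1b was not: it was at 33.3, 28.2 and 33.1 against 49.8, 41.9 and 49.0 CPM, without overlap (log2 fold change -0.57 ± 0.23 SE, adjusted p = 0.124). Of the 4 genes of anaphase and mitotic exit, Plk1 at 7.62, 9.00 and 9.59 against 24.0, 17.7 and 22.4 CPM was called (log2 fold change -1.29 ± 0.30 SE, adjusted p = 0.00532), as was Ube2c, the ubiquitin-conjugating enzyme of the anaphase-promoting complex (log2 fold change -1.14 ± 0.28 SE, adjusted p = 0.00938). Cdc20 at 7.62, 8.82 and 9.53 against 16.3, 11.7 and 15.9 CPM was not called (log2 fold change -0.75 ± 0.29 SE, adjusted p = 0.115), nor was Pttg1 (log2 fold change -0.15 ± 0.26 SE, adjusted p = 0.783).

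The 4 genes of the chromosomal passenger complex, which corrects faulty attachments, were all called: beside Aurkb these were Incenp, Cdca8 and Birc5. Birc5, the gene of survivin, was at 7.82, 11.4 and 12.2 CPM in cone and 26.4, 18.2 and 18.0 CPM in rod libraries, and its adjusted p was 0.0497 by edgeR, just inside the threshold. Of the 6 kinetochore and centromere genes 5 were called, among them Cenpf, a large protein of the outer kinetochore, at 113, 153 and 156 against 339.6, 322 and 291 CPM (log2 fold change -1.17 ± 0.28 SE, adjusted p = 0.00746). Spc25, a partner of Ndc80 in the same complex, was not, at 89.1, 103 and 88.5 against 139.8, 107 and 120.2 CPM (log2 fold change -0.39 ± 0.18 SE, adjusted p = 0.192). Of the 7 spindle genes 5 were called. Kif11, the motor that pushes the poles apart, was at 36.1, 44.3 and 49.1 against 113, 97.5 and 94.7 CPM (log2 fold change -1.24 ± 0.25 SE, adjusted p = 0.00186), and Tpx2, the spindle factor that activates Aurora A, at 37.3, 43.1 and 49.4 against 97.6, 91.2 and 98.7 CPM (log2 fold change -1.15 ± 0.28 SE, adjusted p = 0.00769). Of the 6 cytokinesis genes 5 were called, with Kif23 at 16.8, 17.9 and 23.7 against 43.6, 42.0 and 44.8 CPM (log2 fold change -1.16 ± 0.25 SE, adjusted p = 0.00307) and Anln at 23.2, 19.3 and 23.5 against 50.3, 43.0 and 44.6 CPM (log2 fold change -1.06 ± 0.30 SE, adjusted p = 0.0229).

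The count of 37 was 12 without cone replicate 1 of day 5, 18 without rod replicate 1 and 22 without cone replicate 2. Among the 17 genes described throughout, Plk1, Ndc80, Kif11 and Kif23 were called without each of the 6 libraries in turn, and the other 13 lost the call or had none without at least 1 library. At day 5, 5 of 12 progenitor markers were called lower in cone libraries and 1 higher, with sums of 1180.4 to 1366 CPM in cone and 1455 to 1531 CPM in rod libraries. The 7 photoreceptor markers summed to 1668 to 1939.6 and 860.4 to 1463 CPM with none called, and of 10 Muller glia markers 2 were called lower and 1 higher (1707 to 2060.2 and 2551 to 3038 CPM). Of 9 mesenchyme markers 2 were called higher and 1 lower (23.3 to 75.9 and 6.86 to 17.6 CPM, with 1 at 0 in cone libraries). No progenitor, photoreceptor or Muller glia marker was at 0 in either group, and the part of these markers in the result was not tested. Mitochondrial genes took 10.2% to 10.5% of gene counts in cone and 11.4% to 17.0% in rod libraries, and their part was not tested either.

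**Figure D4:**
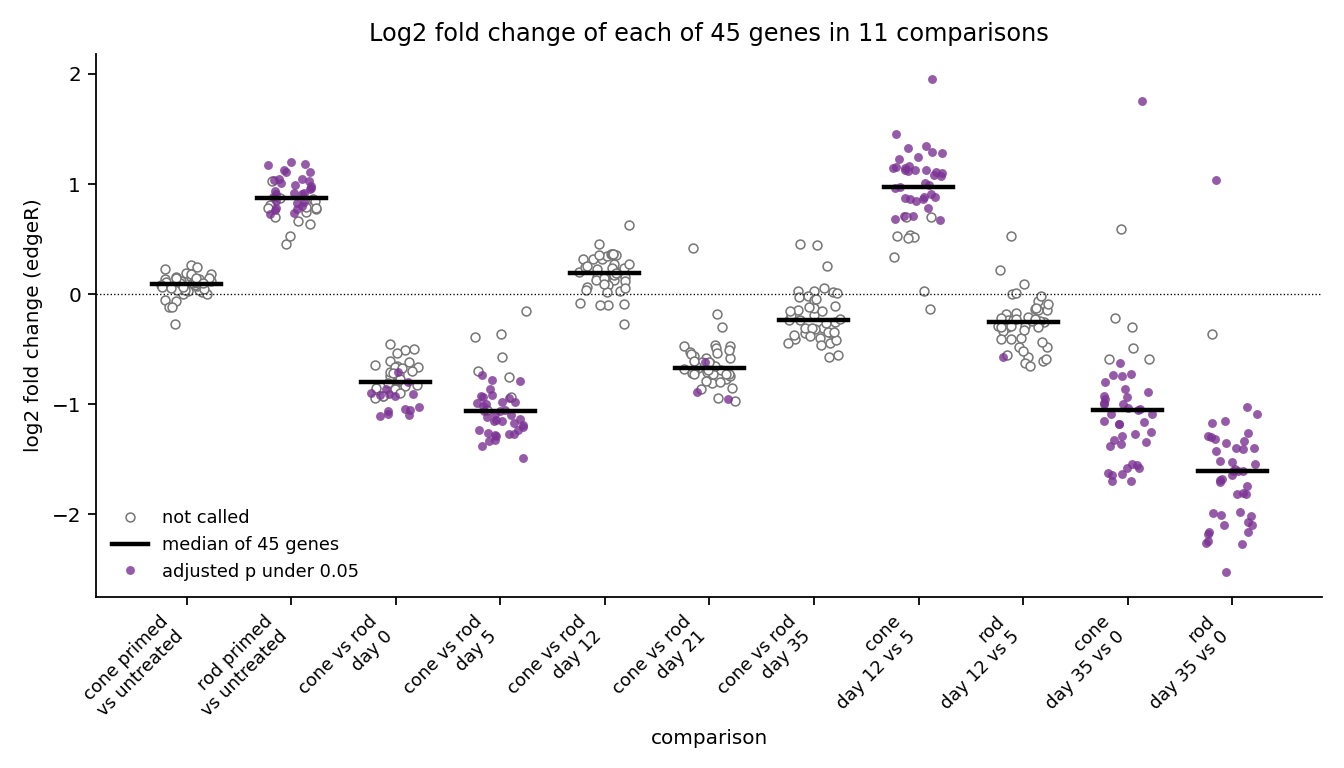
Log2 fold change by edgeR of each of the 45 genes (points) in 11 comparisons, filled where the adjusted p was under 0.05, with a bar at the median. The points lie below 0 for cone against rod at days 0 and 5, around 0 at day 12, and above 0 for rod primed against untreated cells and for cone day 12 against day 5, where Cdc25b at -0.14 is the exception.

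Some mitotic genes fell from day 0 to day 5 in each treatment, and these changes were not shown to differ. From day 0 to day 5, 18 genes were called lower in cone libraries (median -0.70), against 10.2% of all tested genes, and 6 in rod libraries (median -0.49), against 8.79%, a share of the members near that of all genes. In cone libraries Ube2c went from 17.0, 28.3 and 14.5 to 7.75, 7.05 and 8.25 CPM (log2 fold change -1.38 ± 0.28 SE, adjusted p = 0.000969) and Ccnb1 from 25.7, 36.4 and 22.4 to 9.42, 13.0 and 14.2 CPM (log2 fold change -1.21 ± 0.35 SE, adjusted p = 0.0144), without overlap. In rod libraries the largest falls were those of Ube2c, from 31.9, 34.1 and 40.5 to 20.3, 14.5 and 16.2 CPM (log2 fold change -1.07 ± 0.27 SE, adjusted p = 0.00805), and Cdc20, from 32.8, 25.8 and 31.2 to 16.3, 11.7 and 15.9 CPM (log2 fold change -1.04 ± 0.29 SE, adjusted p = 0.0144). The same ubiquitin-conjugating enzyme gene thus fell most in each treatment, and both of its calls held without each of the 6 libraries, while Ccnb1 and Cdc20 each lost the call without 2 of 6 (adjusted p up to 0.0977 and 0.0849 by edgeR). Ube2c shares 22.8% of its exonic bases with a gene on the opposite strand, so its values are less certain. The difference between the changes was called for 0 genes, with 0 at an unadjusted p under 0.05 and 0 by DESeq2, against 0.562% of all tested genes called, and its median was -0.22. The cone count was 3 without cone primed replicate 2, 5 without cone replicate 1 of day 5 and 9 without cone replicate 2 of day 5. The rod count was 1 without rod replicate 2 of day 5, 2 without replicate 3 of the rod primed group and 3 without its replicate 1 or rod replicate 3 of day 5. In the same step 4 of 12 progenitor markers were called lower in each treatment, with 1 higher in cone libraries, and 7 of 10 Muller glia markers were called higher in cone and 4 in rod libraries. Their part in the falls was not tested.

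From day 5 to day 12 the mitotic genes rose again in cone libraries. This step shares the cone day 5 libraries with the comparisons above at day 5 and from day 0 to day 5. The difference of changes below shares them too, so these results are not independent. Of the 45 genes 44 had a positive change, with a median of 0.97 (all tested genes 0.03), and 36 were called higher, against 24.6% of all tested genes. The largest rise was that of Anln (ENSMUSG00000036777, chr9:22332012-22389188, minus strand on GRCm38), from 23.2, 19.3 and 23.5 to 74.8, 76.9 and 104 CPM, 3.88-fold (log2 fold change 1.96 ± 0.30 SE, adjusted p = 9.78e-06). Hmmr, a hyaluronan receptor that also binds spindle microtubules, followed, from 20.1, 22.6 and 23.5 to 49.1, 57.7 and 74.8 CPM (log2 fold change 1.46 ± 0.31 SE, adjusted p = 0.000462). Every day 12 library lay above every day 5 library for both, as for 41 of the 45 genes, against 29.9% of all tested genes. Both were called without each of the 6 libraries in turn.

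All 6 cytokinesis genes were called in this step, with Kif23 at 40.5, 36.3 and 50.6 CPM at day 12 (log2 fold change 1.12 ± 0.25 SE, adjusted p = 0.000657). So were Cdk1, at 24.7, 25.7 and 41.1 CPM (log2 fold change 1.28 ± 0.32 SE, adjusted p = 0.00182), Plk1, at 19.1, 19.8 and 27.7 CPM (log2 fold change 1.35 ± 0.30 SE, adjusted p = 0.000613), and Ndc80, at 24.6, 28.2 and 29.8 CPM (log2 fold change 1.23 ± 0.32 SE, adjusted p = 0.0026). Cdk1, Plk1 and Ndc80 had each been lower than their untreated level at day 5 by mean, and were above it at day 12. Cenpf, at 261, 283 and 402 CPM, rose by 1.16 ± 0.28 and Tpx2, at 80.6, 90.3 and 111 CPM, by 1.12 ± 0.28 on the log2 scale, with adjusted p of 0.00151 and 0.00179 by edgeR. Kif23, Cdk1, Plk1, Ndc80, Cenpf and Tpx2 were each called whichever of the 6 libraries was left out, and Mki67, Ccnb1 and Top2a lost the call without 2 of 6. Mki67 rose to 699.7, 737 and 1006 CPM (log2 fold change 1.01 ± 0.29 SE, adjusted p = 0.00692), Ccnb1 to 24.6, 25.4 and 27.3 CPM and Top2a to 274, 295 and 392 CPM. Of the 4 passenger complex genes 2 were called. Aurkb, at 8.98, 9.16 and 12.1 CPM, and Birc5, at 17.4, 14.4 and 19.5 CPM, were not called (adjusted p = 0.0916 and 0.0777). Cdc25b was the gene with a negative change, -0.14 ± 0.30, and Spc25 changed by 0.03 ± 0.18, and neither was called.

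In rod libraries no gene was called higher in this step: their median change from day 5 to day 12 was -0.26, with 41 of 45 negative and 1 called lower, against 5.59% of all tested genes. That gene was Ncapd2, a condensin subunit, at 112, 98.5 and 109 CPM at day 5 and 87.7, 53.1 and 74.0 CPM at day 12 (log2 fold change -0.57 ± 0.19 SE, adjusted p = 0.0404), a share of the members below that of all genes. The difference between the changes of the treatments was positive for all 45 genes, with a median of 1.28, and 15 were called, against 2.09% of all tested genes. Among the called genes it was largest for Ndc80 (log2 fold change 1.85 ± 0.44 SE, adjusted p = 0.0248) and Hmmr (log2 fold change 1.58 ± 0.43 SE, adjusted p = 0.0436), which lost the call without 5 of 12 and 10 of 12 libraries. By role it was called for 4 of 6 kinetochore and centromere genes, 3 of 4 checkpoint genes, 3 of 6 genes of chromosome structure, 3 of 7 spindle genes, 1 of 4 genes of anaphase and 1 of 6 of cytokinesis. The count was 0 without cone replicate 1 or 2 of day 5, rod replicate 1 of day 5, cone replicate 3 of day 12 or rod replicate 2 of day 12. It was 1 to 5 without rod replicate 3 of day 12, cone replicate 3 of day 5, cone replicate 1 of day 12, or rod replicate 3 or 2 of day 5. It was 23 without cone replicate 2 of day 12, 37 without rod replicate 1 of day 12, and 0 when the 12 libraries were fitted alone by edgeR. The count of 36 in cone libraries was 21 without cone replicate 3 of day 12 and 22 without cone replicate 1 of day 5. In rod libraries Ncapd2 was called without rod replicate 1 of day 12 and lost the call without each of the other 5 libraries (adjusted p up to 0.124 by edgeR). No gene was called without rod replicate 1, 2 or 3 of day 5 or rod replicate 3 of day 12, 2 were called without rod replicate 2 of day 12 and 4 without rod replicate 1 of day 12.

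Other markers moved in the same step in cone libraries. Of 9 mesenchyme markers 6 were called higher, summing to 23.3 to 75.9 CPM at day 5 and 320.4 to 404 CPM at day 12, where the rod libraries held 38.9 to 76.1 CPM. Of 6 lens markers 5 were called higher, from 1.16 to 2.74 to 11.9 to 17.2 CPM. Of 6 astrocyte markers 3 were called higher, from 41.6 to 82.4 to 389 to 598 CPM, and of 10 Muller glia markers 6, from 1707 to 2060.2 to 4040.4 to 4865 CPM. Of 7 photoreceptor markers 5 were called lower, from 1668 to 1939.6 to 89.6 to 319 CPM, and of 6 ganglion cell markers 4. Of 12 progenitor markers 5 were called higher and 5 lower, with sums of 1180.4 to 1366 and 1138 to 1159 CPM. Mitochondrial genes took 10.2% to 10.5% of gene counts at day 5 and 14.5% to 18.6% at day 12. The part of these in the result was not tested.

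At day 12 the treatments were not shown to differ. None of the 45 genes was called by edgeR, with 0 at an unadjusted p under 0.05 and 0 by DESeq2, against 10.1% of all tested genes, and the median difference was 0.19. The rod libraries were spread widely, as Mki67 at 1029, 398 and 704 CPM shows, and its cone libraries at 699.7, 737 and 1006 CPM lay inside that spread (0.20 ± 0.29 on the log2 scale, adjusted p = 0.756 by edgeR). Without rod replicate 2, the lowest library, the difference of Mki67 turned to -0.0938. For Cdk1 the difference was 0.09 ± 0.31 (adjusted p = 0.909), and it turned to -0.21 without the same library and to -0.19 without cone replicate 3. Without rod replicate 1, 3 genes were called.

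At day 21 the cone minus rod difference was negative for 44 of 45 genes with a median of -0.67, and 3 were called lower, against 3.14% of all tested genes. Kif11 was at 45.9, 37.5 and 37.2 CPM in cone and 84.5, 78.5 and 69.6 CPM in rod libraries (log2 fold change -0.95 ± 0.25 SE, adjusted p = 0.0167), and Nusap1 at 21.0, 15.1 and 19.5 and 44.6, 31.5 and 26.4 CPM (log2 fold change -0.89 ± 0.27 SE, adjusted p = 0.0404). Mad2l1, a checkpoint protein that binds CDC20, was the other (log2 fold change -0.62 ± 0.19 SE, adjusted p = 0.0447). The libraries did not overlap for these genes, and 33 of the 45 genes had every cone library below every rod library, against 10.2% of all tested genes. Kif11 lost the call without 2 of 6 libraries and Nusap1 without 5 of 6 (adjusted p up to 0.184 by edgeR). The count was 0 without cone replicate 2 or 3, and 1 without cone replicate 1 or rod replicate 1 or 2. Spc25 was the gene with a positive difference, at 154, 104 and 102 CPM in cone and 101, 74.9 and 92.3 CPM in rod libraries, without overlap (log2 fold change 0.42 ± 0.18 SE, adjusted p = 0.15). At day 35, 0 genes were called by edgeR and 0 by DESeq2, with 2 at an unadjusted p under 0.05, against 12.3% of all tested genes. The median difference was -0.23, and 1 gene was called without cone replicate 1. Other markers differed at day 21. Cone libraries exceeded rod libraries without overlap in the summed levels of microglia markers (16.5 to 40.6 against 0.772 to 3.00 CPM, 5 of 8 called higher) and astrocyte markers (673 to 965 against 244 to 393 CPM, 3 of 6). The same held for mesenchyme (437 to 689.8 against 184 to 355 CPM, 2 of 9) and endothelium markers (219.6 to 246 against 64.2 to 139.7 CPM, 1 of 5). It also held for pigment epithelium (23.1 to 34.9 against 9.52 to 11.0 CPM, 2 of 5) and photoreceptor markers (25.7 to 108 against 13.6 to 22.9 CPM, 2 of 7). Cone libraries lay below rod libraries in progenitor markers (1227 to 1363 against 1416 to 1600.1 CPM, 3 of 12 called lower and 1 higher) and in ganglion cell markers (22.7 to 32.5 against 52.0 to 81.8 CPM, 1 of 6 lower). Most of the ganglion cell sum was Rbpms, at means of 18.6 CPM in cone and 59.9 CPM in rod libraries. By mean, Nefl (4.26 and 0.985 CPM), Isl1, Sncg and Pou4f2 went the other way, and Pou4f1 was near equal. The endothelium sum was nearly all Kdr, at means of 228 and 96.5 CPM, and Kdr was at 344 CPM in untreated cells. Mitochondrial genes took 12.2% to 12.9% of gene counts in cone and 14.0% to 15.4% in rod libraries. The part of these in the result was not tested. Over the 5 days, 8 of the 45 genes were not called between cone and rod libraries on any: Cdc25b, Bub1b, Cdc20, Pttg1, Spc25, Aurka, Kif2c and Kif20a.

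Over the mean of days 5 to 35, 32 of the 45 genes were called lower in cone libraries, against 12.2% of all tested genes, with a median of -0.43. The largest differences were those of Kif11 (log2 fold change -0.65 ± 0.13 SE, adjusted p = 0.000279) and Aurkb (log2 fold change -0.65 ± 0.17 SE, adjusted p = 0.00458), each 1.57-fold lower and called without each of the 24 libraries in turn. The mean does not show the course over days. A separate test on 4 degrees of freedom set the differences at days 5, 12, 21 and 35 against that at day 0. It called 5 genes, against 9.22% of all tested genes, a share of the members near that of all genes. They were Spc25 (adjusted p = 0.0179), Ndc80 (0.0364), Nuf2 (0.0459), Smc2 (0.0471) and Mad2l1 (0.0475). Ndc80, Nuf2 and Spc25 encode 3 of the subunits of the NDC80 complex, and Smc2 a condensin ATPase. The differences of Ndc80 were -1.10, -1.49, 0.36, -0.79 and -0.27 on the log2 scale at days 0, 5, 12, 21 and 35, and those of Spc25 were -0.50, -0.39, -0.27, 0.42 and 0.46. The Ndc80 difference was positive at day 12 alone, and that of Spc25 at days 21 and 35. Leaving out 1 of the 30 libraries gave counts of 1 to 31, with 31 without rod replicate 1 of day 12 and 1 without each of 10 libraries. Only Spc25 of the 5 was called in every such fit.

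**Figure D5:**
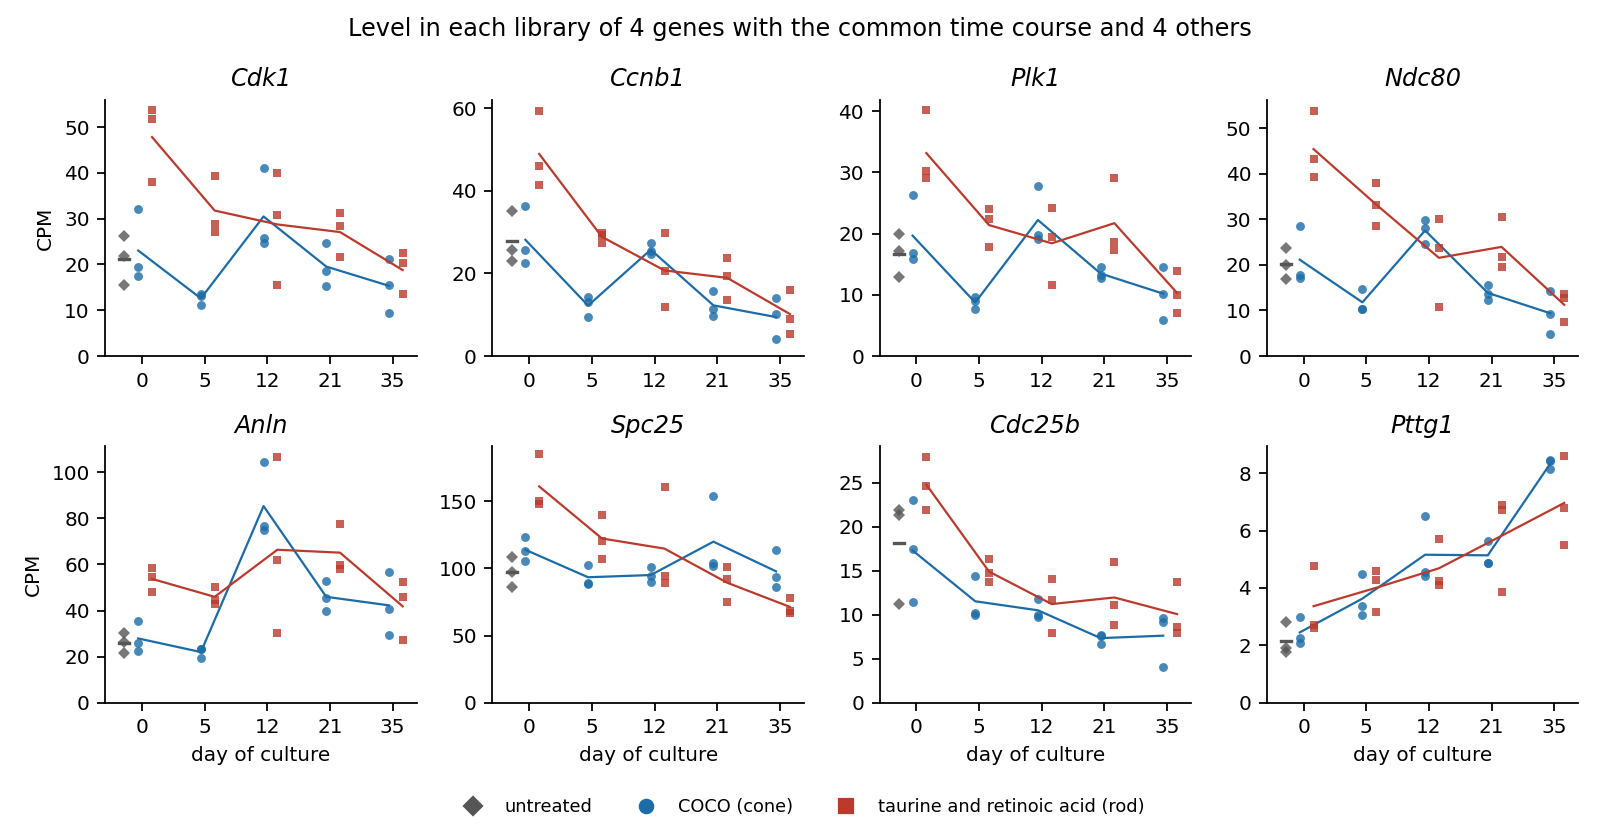
CPM in each library (points) by day of culture (days evenly spaced, not to scale) with lines through the means of 3 libraries. The top row shows Cdk1, Ccnb1, Plk1 and Ndc80, which rose from cone day 5 to day 12. The bottom row shows Anln, which had the largest rise in that step, and Spc25, Cdc25b and Pttg1. Anln peaks at day 12 in cone libraries, Spc25 in cone libraries lies between 86.5 and 154 CPM, Cdc25b has no rise at day 12 and Pttg1 climbs to 8.45 CPM in cone replicate 1 at day 35.

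Some genes fell in later steps too. From day 12 to day 21, 11 genes were called lower in cone libraries, against 0.826% of all tested genes, with a median of -0.79. Cenpe, the kinetochore motor that aligns chromosomes, fell from 200.5, 182 and 303 to 107, 85.2 and 98.6 CPM (log2 fold change -1.24 ± 0.29 SE, adjusted p = 0.0159) and Cenpf from 261, 283 and 402 to 143, 136 and 134 CPM (log2 fold change -1.20 ± 0.28 SE, adjusted p = 0.0184). The days did not overlap. The count was 0 without cone replicate 3 of day 12 or cone replicate 1 or 2 of day 21, 2 without cone replicate 3 of day 21 and 4 without cone replicate 1 or 2 of day 12. In this step 3 of 10 Muller glia markers were called higher (4040.4 to 4865 CPM at day 12, 5323 to 7032 CPM at day 21), as were 2 of 6 astrocyte markers (389 to 598 and 673 to 965 CPM) and 2 of 9 mesenchyme markers (320.4 to 404 and 437 to 689.8 CPM). Of 12 progenitor markers 1 was called lower (1138 to 1159 and 1227 to 1363 CPM). Mitochondrial genes took 14.5% to 18.6% of gene counts at day 12 and 12.2% to 12.9% at day 21, and the part of these was not tested. From day 21 to day 35, 0 genes were called in cone libraries, with 15 at an unadjusted p under 0.05 and 1 called by DESeq2, against 0.915% of all tested genes, and the median was -0.41.

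In rod libraries no gene was called from day 12 to day 21 by edgeR or DESeq2, with 0 at an unadjusted p under 0.05, against 11.2% of all tested genes (median 0.03). From day 21 to day 35, 13 were called lower, against 0.876% of all tested genes (median -0.96). Cdc25c fell from 9.65, 5.95 and 4.63 to 1.36, 3.23 and 2.39 CPM (log2 fold change -1.52 ± 0.37 SE, adjusted p = 0.0328) and Nuf2 from 44.6, 30.9 and 28.3 to 11.0, 19.3 and 14.4 CPM (log2 fold change -1.21 ± 0.29 SE, adjusted p = 0.0345). Every day 35 library lay below every day 21 library for both genes. The count was 0 without rod replicate 1 of day 21 or rod replicate 1 or 3 of day 35, 1 without rod replicate 2 of day 21, 6 without rod replicate 3 of day 21, and 0 when the 6 libraries were fitted alone by edgeR. In this step 1 of 10 Muller glia markers was called higher and none of the 12 progenitor markers was called.

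From day 0 to day 35 the fall reached nearly all of the genes. In rod libraries 43 of 45 were called lower, against 26.2% of all tested genes, with a median of -1.61, and the total of 44 called, Pttg1 included, was the same without each of the 6 libraries in turn. In cone libraries 38 were called lower, against 26.5%, with a median of -1.05. The starting points differ, since rod primed cells began above untreated cells. Nusap1 fell from 89.8, 84.5 and 104 to 12.1, 22.1 and 14.1 CPM in rod libraries, 5.76-fold (log2 fold change -2.53 ± 0.28 SE, adjusted p = 2.54e-08), and from 37.9, 56.7 and 38.1 to 16.0, 9.27 and 15.7 CPM in cone libraries, 3.24-fold (log2 fold change -1.70 ± 0.28 SE, adjusted p = 8.98e-06). Ccnb1 fell 4.82-fold in rod libraries, to 5.44, 16.1 and 8.97 CPM (log2 fold change -2.27 ± 0.36 SE, adjusted p = 6.91e-06). Ccna2, the cyclin A2 gene, fell 3.24-fold in cone libraries, from 51.5, 82.3 and 45.7 to 26.5, 11.0 and 17.9 CPM (log2 fold change -1.70 ± 0.28 SE, adjusted p = 1e-05), and it shares over 10% of its exonic bases with a neighbour. The groups did not overlap in any of these. Cdk1 fell in rod libraries, to 13.5, 22.5 and 20.3 CPM (log2 fold change -1.35 ± 0.31 SE, adjusted p = 0.000665), and was not called in cone libraries, at 21.2, 9.36 and 15.5 CPM (log2 fold change -0.60 ± 0.32 SE, adjusted p = 0.111).

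Securin went the other way. Pttg1 (ENSMUSG00000020415, chr11:43420250-43426251, minus strand on GRCm38) was at 1.92, 2.80 and 1.77 CPM in untreated, 2.27, 2.99 and 2.10 CPM in cone primed and 2.71, 2.62 and 4.76 CPM in rod primed cells. It was at 4.48, 3.04 and 3.37 CPM at day 5, 4.55, 4.43 and 6.50 at day 12, 5.64, 4.88 and 4.89 at day 21 and 8.45, 8.41 and 8.15 CPM at day 35 in cone libraries. It was at 3.15, 4.29 and 4.58, 5.71, 4.23 and 4.11, 6.87, 3.86 and 6.72 and 6.80, 5.50 and 8.59 CPM on the same days in rod libraries. Every day 35 library lay above every day 0 library of its treatment. The rise from day 0 to day 35 was 3.37-fold in cone (log2 fold change 1.75 ± 0.27 SE, adjusted p = 4.08e-06) and 2.05-fold in rod libraries (log2 fold change 1.04 ± 0.27 SE, adjusted p = 0.00172), and both calls held without each of the 6 libraries in turn. Pttg1 was the only one of the 45 genes called higher between these days in either treatment. At day 0 it had the lowest counts of the members, 15 to 53 per library. At day 35 Cdc25c was lower in each library, with 16 to 57 counts against 68 to 133 for Pttg1. Its RefSeq window, printed above, holds neither motif, as was the case for 5 genes that fell in rod libraries, among them Nusap1 and Mybl2. The Pttg1 window lies inside the gene as placed by GENCODE, so the bases before that start were not searched.

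Anln and, in cone libraries, Spc25 were not called over this span. Anln was at 25.8, 35.4 and 22.5 CPM in cone primed and 56.8, 29.3 and 40.8 CPM in cone day 35 libraries (log2 fold change 0.59 ± 0.30 SE, adjusted p = 0.0918), and at 54.7, 48.1 and 58.5 and 27.3, 52.3 and 45.9 CPM in the rod libraries (log2 fold change -0.36 ± 0.29 SE, adjusted p = 0.309). It was not called in either by edgeR, with overlapping groups, and was called higher in cone libraries by voom with quality weights (adjusted p = 0.00686). Spc25 was at 105, 123 and 113 and 86.5, 113 and 93.7 CPM in cone libraries, with overlap (log2 fold change -0.22 ± 0.18 SE, adjusted p = 0.306), and fell in rod libraries from 148, 150.0 and 185 to 78.3, 67.2 and 68.6 CPM (log2 fold change -1.18 ± 0.18 SE, adjusted p = 4.3e-06). Smc4 had the smallest called fall in rod libraries, from 212, 219 and 247 to 92.3, 125 and 115 CPM (log2 fold change -1.03 ± 0.18 SE, adjusted p = 2.82e-05). By day 35 Spc25 stood at 30.7 ± 4.37 CPM per kilobase in cone libraries (SD, n = 3), above Mki67 at 22.0 ± 9.48. Of the other genes that were not called in cone libraries over this span, Hmmr, Kif20a and Kif20b had log2 fold changes of -0.49, -0.30 and -0.59, the last 2 being kinesins of the midzone.

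The cells at day 35 differed in much else from those at day 0. Of 10 Muller glia markers 9 were called higher in cone libraries, and 7 higher and 1 lower in rod libraries. All 6 astrocyte markers and 8 of 9 mesenchyme markers were called higher in each treatment, the latter summing to 539 to 3699 CPM in cone and 279.6 to 782 CPM in rod libraries at day 35. Of 8 microglia markers 7 were called higher in cone libraries, at 17.9 to 97.5 CPM against 1.05 to 2.51 at day 0, and none in rod libraries, at 1.70 to 2.26 CPM. Of 7 photoreceptor markers 6, and of 6 ganglion cell markers 5, were called lower in each treatment, with 1 ganglion cell marker higher in rod libraries. Of the 12 progenitor markers 4 were called higher and 6 lower in cone libraries, and 3 higher and 4 lower in rod libraries. At day 35 no photoreceptor marker was at 0 in all 3 libraries of a group, and 1 ganglion cell marker was in cone and 2 in rod libraries. Their part in the falls was not tested.

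Many other genes of the pathway were called in the same comparisons. Of all tested genes, 6.71% were called higher in rod primed than in untreated cells. Called lower in cone than in rod libraries were 4.77% at day 0 and 5.8% at day 5. In cone libraries 10.2% were called lower from day 0 to day 5 and 24.6% higher from day 5 to day 12. From day 0 to day 35, 26.2% were called lower in rod and 26.5% in cone libraries. Among 45 further mitotic genes (kinetochore, cohesin protection, spindle and cytokinesis genes) 30 were called higher in rod primed than in untreated cells, 22 lower in cone than in rod libraries at day 0 and 32 at day 5. In cone libraries 28 were called higher and 1 lower from day 5 to day 12, and from day 0 to day 35, 39 were called lower in rod libraries and 31 lower and 1 higher in cone libraries. Among 40 genes of DNA replication, which act in S phase before the genes described here, 25 were called higher in rod primed cells. Of these 40, 16 were lower in cone than in rod libraries at day 0 and 26 at day 5. In cone libraries 21 fell from day 0 to day 5 and 17 rose from day 5 to day 12. From day 0 to day 35 in rod libraries 39 of the 40 were called lower and 1 higher, and in cone libraries 29 lower and 1 higher. The median difference between cone and rod at day 5 was -1.06 for the further mitotic genes and -0.87 for the replication genes, beside -1.06 for the 45 members. Of 12 genes that inhibit CDK1 or belong to the DREAM complex and its activators (such as Wee1, Rbl1 and Lin54), 2 were called higher in rod primed cells and 3 lower in cone than in rod libraries at day 5, with medians of 0.13 and -0.31. From day 0 to day 35, 6 of these were called lower and 1 higher in rod libraries, and 5 lower and 1 higher in cone libraries.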

How the data were processed

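RNA sequencing counts of 33 libraries in 11 groups of 3 were used, grouped by the labels. The authors deposited, for each library, whole read counts per gene and a table of FPKM and TPM values. HISAT2, StringTie, HTSeq and GRCm38 are named in the submitters' processing notes, with no versions; the strand setting and the annotation release are not given in the sources used here. The authors' TPM values were not used for levels, because 648 of 1485 values of the 45 genes (43.6%) were listed at 0 although the lowest count was 15, and the 4 genes with the highest mean TPM all share exons with a gene on the opposite strand. The authors' FPKM values were not used. Levels per kilobase were computed from the counts and GENCODE M21 exonic lengths.

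Of 47729 genes, 32488 had a count and 18150 passed edgeR's filterByExpr with a minimum count of 10. All 33 libraries were fitted together with 1 mean per group, TMM scaling and edgeR's quasi-likelihood test (edgeR 4.0.16, R 4.3.3), and Benjamini-Hochberg adjustment over all tested genes. Each of 21 comparisons was a contrast of group means, and the change of the cone minus rod difference with day was an F test on 4 degrees of freedom. The common biological coefficient of variation was 0.213. Scripts were tested on simulated data. Alternatives were RLE size factors, no filter, a mean CPM of at least 1, a replicate block, limma voom quality weights (limma 3.58.1), DESeq2 (1.42.0), the compared libraries alone, and each of the 33 libraries left out. Promoter motifs were counted with Python 3.11.15.

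The 45 genes, the other gene and marker lists and the tests were chosen with earlier results of these data known. Values per library are given for 17 genes picked as 1 or 2 of each role, and in each comparison the 2 called members with the most positive and the 2 with the most negative fold change are named, with the 3 smallest falls from day 0 to day 35. Other genes named, among them Ncapd2, Cdc25b, Spc25 in comparisons outside this rule and the 8 never called between treatments, were chosen after their values were seen.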

Additional observations from a re-analysis of the deposited data

Results flagged for a closer look

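The difference between cone and rod libraries changed with day, by a test of that change itself (edgeR F test over days 0 to 35), for 5 of the 45 genes, a share near the 9.22% of all tested genes called, and for 1 when the compared libraries were fitted alone. They were Spc25 (adjusted p = 0.0179), Ndc80 (0.0364), Nuf2 (0.0459), Smc2 (0.0471) and Mad2l1 (0.0475). Spc25 was called without each of the 30 libraries in turn, while Ndc80 lost the call without 12, Nuf2 without 22, and Smc2 and Mad2l1 without 24 of them.

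The change from day 5 to day 12 differed between the treatments, by a test of the difference of the changes, for 15 of the 45 genes, against 2.09% of all tested genes, all more positive in cone libraries: Top2a, Smc2, Ncapg, Bub1, Ttk, Mad2l1, Plk1, Cenpa, Cenpf, Ndc80, Nuf2, Tpx2, Kif11, Hmmr and Kif23. The count ranged from 0 to 37 when 1 library was left out and was 0 when the compared libraries were fitted alone.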

How the results depend on the processing

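With 3 libraries per group and a common spread of 0.213, many calls at single days lay near the threshold. Leaving out 1 library gave counts of called genes for cone against rod libraries of 0 to 25 (day 0), 12 to 32 (day 5), 0 to 3 (days 12 and 21), 0 to 1 (day 35) and 22 to 40 over the mean of days 5 to 35. It gave 3 to 29 for rod primed and 0 to 0 for cone primed against untreated cells. In cone libraries it gave 3 to 19 from day 0 to 5, 21 to 36 from day 5 to 12, 0 to 4 from day 12 to 21, 0 to 0 from day 21 to 35 and 30 to 41 from day 0 to 35, and in rod libraries 1 to 6, 0 to 4, 0 to 0, 0 to 18 and 44 to 44 for the same steps. It gave 1 to 31 for the change with day, 0 to 37 for the difference of changes from day 5 to 12 and 0 to 0 from day 0 to 5. Each such fit also holds 1 library fewer, and the part of this in the counts was not tested.

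With voom quality weights 43 genes were called between cone and rod libraries on day 0, 1 on day 12, 19 on day 21 and 1 on day 35, 23 from cone day 12 to 21, 6 from cone day 21 to 35, 23 from rod day 0 to 5, 10 from rod day 5 to 12, 2 from rod day 12 to 21, 41 for the change with day and 39 for the difference of changes from day 5 to 12. With DESeq2 9 were called between cone and rod at day 21, 19 from cone day 12 to 21, 1 from cone day 21 to 35, 27 from rod day 21 to 35, 22 for the change with day and 27 for the difference of changes from day 5 to 12. With the compared libraries alone 36 were called at day 0 and 17 at day 21 between cone and rod, 34 from cone day 0 to 5, 17 from cone day 12 to 21, 29 from rod day 0 to 5, 0 from rod day 5 to 12, 0 from rod day 21 to 35, 1 for the change with day and 0 for the difference of changes from day 5 to 12. Without a filter 20 were called from rod day 21 to 35 and 8 for the change with day, with RLE size factors 3 for the change with day, and with a mean CPM of at least 1, 1 from cone day 21 to 35. The causes were not tested. All other counts under these settings stayed within 1.5 times.

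The cone minus rod difference at day 12 turned negative for Mki67 without rod replicate 2 (-0.0938; up to 0.56 without rod replicate 1) and for Cdk1 with voom quality weights (-0.12), without cone replicate 3 (-0.19) and without rod replicate 2 (-0.21; up to 0.40 without rod replicate 1). Replicate numbers were not shown to pair the libraries over all groups together. Deviations of same-numbered libraries had a median correlation of 0.016 over 165 pairs (-0.259 to 0.513), with 48 over 0.1. Pairs of different numbers had a median of -0.011 over 330 pairs, with 71 over 0.1. Pairing between particular groups was not examined. With the number as a replicate block, 15 genes were called between cone and rod libraries on day 0, 35 on day 5, 2 on day 21 and none on the other days, 31 for rod primed against untreated cells, 35 from cone day 5 to 12 and 22 for the difference of changes from day 5 to 12.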
